A study of Mus musculus with 8 samples.

Results

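The IκB kinases and proteins linked to them were followed in the livers of mice that carry a constitutively active IKK2 behind the LAP promoter. Among the 10 members are 2 subunits of the IKK complex (Ikbkb and Ikbkg) and the IKK-related kinases Ikbke and Tbk1. The others are the kinases TAK1 (Map3k7), NIK (Map3k14) and TPL2 (Map3k8), the TAK1-binding proteins Tab1 and Tab2, and the ubiquitin ligase Traf6. Each was chosen by symbol, with earlier results of these data known, and read by the probe set annotated to that symbol alone. All 10 were measured, out of 19938 genes with such a probe set, and each had exactly 1, so no choice between probe sets arose.

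Livers of 4 transgenic and 4 control mice, all 4 weeks old, were hybridised to 1 Affymetrix array each. The transgenic mice express constitutively active IKK2 from the LAP promoter, which is active mainly in hepatocytes, and the controls are labelled wild type. Both groups share a mixed background of C57BL/6 and NMRI with at least 4 backcrosses to C57BL/6. Whole liver was used, so fewer cells of a type and less RNA per cell cannot be told apart. The sources used here do not give the number of founders behind the 4 transgenic mice, their sex, or whether the Ikbkb probe set also reads the transgene.

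The IKK complex, made of catalytic subunits and the regulatory subunit NEMO, phosphorylates the IκB inhibitors, whose destruction frees NF-κB to enter the nucleus. TAK1, brought to ubiquitin chains through TAB2 after TRAF6 or other ligases have built them, phosphorylates and activates IKK. NIK does the same in the noncanonical branch, and TPL2 carries the signal from IKK to the MAP kinases. TBK1 and IKK-epsilon resemble the catalytic IKK subunits and phosphorylate interferon regulatory factors. In liver the pathway acts both in hepatocytes, where it protects against death signals, and in macrophages, where it drives cytokine production.

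Promoters are shown for the 2 IKK-related kinases, which rose, and for Map3k7, which did not pass the test, because only the latter holds a match to the NF-κB consensus. The sequences are the 250 bases before a start listed in RefSeq (GRCm38.p6), on the gene's strand, with the match in capitals. That start need not be the outer end of the gene. The Map3k7 window lies inside the span given for its gene, which begins at base 31963492 of chr4. Part of the Ikbke window lies inside its gene, which ends at base 131279601 of chr1. The Ikbke window lies on the minus strand at chr1:131279564-131279813, the Tbk1 window on the minus strand at chr10:121586795-121587044 and the Map3k7 window on the plus strand at chr4:31963857-31964106.
Ikbke: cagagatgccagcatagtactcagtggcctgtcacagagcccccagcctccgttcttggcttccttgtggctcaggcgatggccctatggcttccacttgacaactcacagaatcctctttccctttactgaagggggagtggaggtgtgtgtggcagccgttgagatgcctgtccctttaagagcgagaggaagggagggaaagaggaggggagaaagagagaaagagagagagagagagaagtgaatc
Tbk1: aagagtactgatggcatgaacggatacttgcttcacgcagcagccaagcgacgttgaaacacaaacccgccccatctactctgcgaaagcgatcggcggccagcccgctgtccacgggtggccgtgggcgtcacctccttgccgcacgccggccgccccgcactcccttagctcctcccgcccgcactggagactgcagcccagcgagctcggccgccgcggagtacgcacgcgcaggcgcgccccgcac
Map3k7: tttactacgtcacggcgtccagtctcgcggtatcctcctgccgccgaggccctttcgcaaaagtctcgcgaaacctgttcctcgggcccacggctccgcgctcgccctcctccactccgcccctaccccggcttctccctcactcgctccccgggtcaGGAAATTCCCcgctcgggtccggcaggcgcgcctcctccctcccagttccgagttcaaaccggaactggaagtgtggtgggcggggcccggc
The NF-κB consensus, a motif of 10 bases, was searched on both strands. It was found as GGAAATTCCC in the Map3k7 window, from base 92 to base 83 before that listed start. This was 1 of the 11 windows searched, which belong to 7 members (Ikbke, Ikbkg, Map3k7, Map3k14, Tab2, Tbk1 and Traf6). No window of Ikbkb, Map3k8 or Tab1 was searched, so the search says nothing about these members. Of all 32851 RefSeq windows of this length 7.25% hold it. The GC content was 54.4% in the Ikbke window, 68.4% in that of Tbk1 and 68.0% in that of Map3k7.

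Of the 10 members 4 rose in transgenic liver, Ikbke by the most, followed by Ikbkb, Map3k8 and Tbk1, while 0 fell and 6 did not pass. Changes were tested with limma on the deposited log2 values, and a gene passed at a Benjamini-Hochberg adjusted p under 0.05 over all probe sets with 1 symbol. Over all genes 4.67% were called higher and 1.67% lower, against 4 of 10 members higher. The members were chosen with earlier results of these data known, so this contrast is a description and no test. At an unadjusted p under 0.05, 5 members were higher and 1, Tab1, was lower, where 15.3% of all genes were higher and 18.3% lower. Log2 fold changes of the members ran from -0.24 to 2.28 with a median of 0.28, and 9 were positive. Over all genes the median was -0.07, and 38.4% were positive. Every transgenic reading lay above every control reading for 5 members, the called 4 and Tab2, against 11.2% of all genes. The share of calls that were higher over all genes was 73.7%, and moved to 62.6% after quantile normalization and to 86.4% with each array centred on its median.

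**Figure D1:**
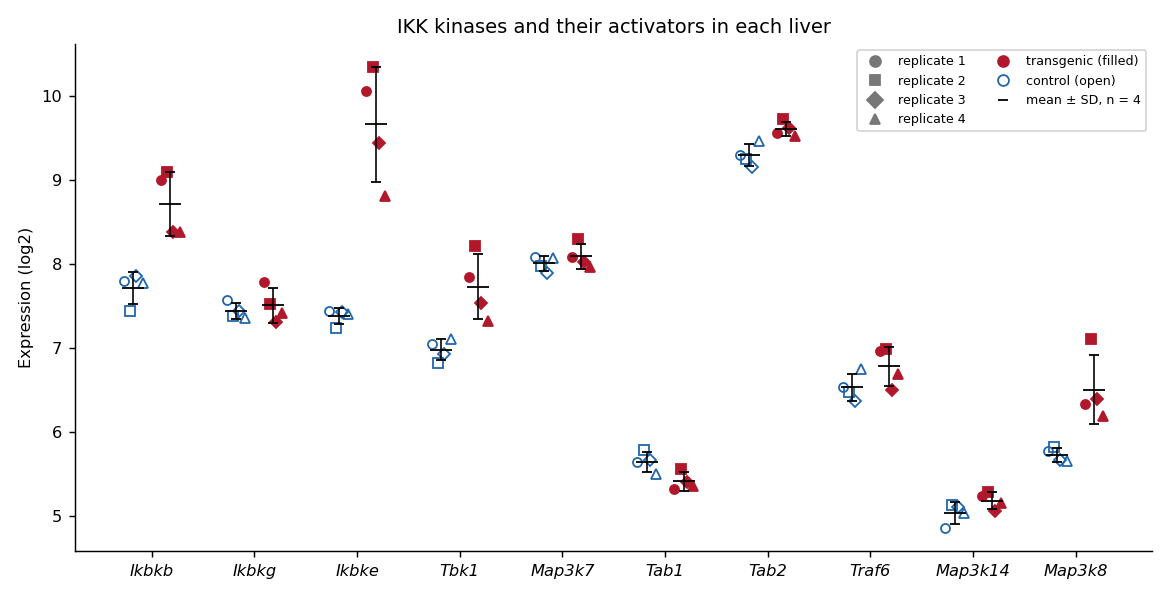
Log2 expression of the 10 members in each liver, with filled symbols for transgenic and open symbols for control mice, a symbol shape per replicate, and the mean ± SD (n = 4). The 4 transgenic readings of Ikbke, from 8.81 to 10.3, all lie above its controls, which reach 7.44; heights of different genes are not comparable, since each probe set has its own response.

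All 8 hepatocyte markers had control means above every array median. The measured Kupffer cell, endothelial, stellate cell and fibroblast, and bile duct markers did too, so this does not single out the labelled tissue. Limma called 0 of the 8 hepatocyte markers (0 higher and 1 lower at an unadjusted p under 0.05). Array medians lay between 4.88 and 5.08. Transcripts of 2 leukocyte types stood higher in transgenic liver. Of 8 Kupffer cell markers 6 rose, with a median log2 fold change of 1.48, and all 6 measured markers of recruited monocytes rose, with a median of 2.39. The macrophage markers Adgre1 and Cd68 rose by 1.74 and 1.71. Ccr2, the chemokine receptor of monocytes, rose by 3.72 and the lysozyme Lyz2 by 2.84. Controls read 3.69 to 3.98 for Ccr2, and 4 of the 6 monocyte markers had control means under every array median, so the size of its rise and of the list's median is uncertain. Among the other lists 3 of 6 dendritic cell markers rose, Cd209a by 1.92 and Flt3 by 0.80 the most. So did 2 of 8 T and NK cell markers (Cd3g by 1.53 and Nkg7 by 1.52). Of 6 stellate cell and fibroblast markers 2 rose (Col1a1 by 0.71 and Dcn by 0.55), while Lrat, Reln, Des and Pdgfrb did not pass. Over all genes 4.67% were called higher. Control means lay under every array median for 5 of the 6 dendritic cell markers and 5 of the 8 T and NK cell markers. Cd209a was among them with a control mean of 4.77, so the size of its rise is also uncertain. Limma called 0 of 7 neutrophil, 0 of 5 B cell, 0 of 6 endothelial and 0 of 4 bile duct markers. At an unadjusted p under 0.05, 1 neutrophil and 2 endothelial markers were higher, 1 bile duct marker was lower and 0 B cell markers passed. Against the 15.3% higher and 18.3% lower over all genes, these counts say nothing about the 4 lists.

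Of the 2 measured subunits of the IKK complex, the transcript of 1 rose, Ikbkb. Whether its probe set also reads the transgene is not known here. Ikbkb encodes IKK2, the catalytic subunit that the transgene supplies in active form. Its level in transgenic replicates 1 to 4 was 8.996, 9.09, 8.38 and 8.38, whereas the 4 control livers gave 7.79, 7.44, 7.85 and 7.77. The groups did not overlap, and transgenic replicates 1 and 2 stood apart from 3 and 4. The log2 fold change was 1.00 (SE 0.18, 95% interval 0.59 to 1.40, adjusted p = 0.0185, limma), a 2.00-fold difference. Ikbkg encodes NEMO, the regulatory subunit that binds ubiquitin chains. It read 7.78, 7.52, 7.30 and 7.41 in the transgenic livers, and 7.56, 7.37, 7.44 and 7.36 in the controls. The groups overlapped, with the highest reading in transgenic replicate 1 and the lowest in transgenic replicate 3. Its log2 fold change of 0.07 (95% interval -0.18 to 0.32, adjusted p = 0.659, limma) turned to -0.078 after quantile normalization and to -0.0068 with array weights. The other catalytic subunit, Chuk, was listed with the pathway genes but not measured, since no probe set carried its symbol alone.

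Both IKK-related kinases rose. Ikbke, the inducible IKK-epsilon that is abundant in immune cells, had levels of 10.06, 10.34, 9.43 and 8.81 across transgenic replicates 1 to 4, with control livers at 7.44, 7.24, 7.42 and 7.41. The lowest transgenic reading was 1.37 above the highest control on the log2 scale. Its log2 fold change was 2.28 (SE 0.28, 95% interval 1.66 to 2.90, adjusted p = 0.00408, limma), a 4.86-fold difference that ranked 67 among the 19938 genes. The transgenic livers varied more than the controls, with an SD of 0.68 against 0.096 (n = 4 each). Tbk1, the constitutively present kinase of the same family, read 7.85, 8.21, 7.53 and 7.32 in transgenic livers, and 7.05, 6.83, 6.93 and 7.10 in controls. Here too the groups did not overlap, but the nearest readings were 0.22 apart. Its log2 fold change was 0.75 (SE 0.17, 95% interval 0.36 to 1.14, adjusted p = 0.0403, limma), or 1.68-fold.

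TAK1 and the proteins bound to it did not pass. Map3k7, the kinase itself, read 8.08, 8.30, 8.02 and 7.96 in transgenic livers, and 8.09, 7.97, 7.90 and 8.07 in controls. The readings of both groups were interleaved, with transgenic replicate 2 the highest. Its log2 fold change of 0.08 (95% interval -0.13 to 0.30, adjusted p = 0.534, limma) turned to -0.050 after quantile normalization and to -0.015 with array weights. Tab2, the subunit that docks TAK1 on ubiquitin chains, read 9.56, 9.72, 9.61 and 9.52 in transgenic livers, against 9.30, 9.24, 9.15 and 9.46 in controls. Its groups did not overlap, though the nearest readings were only 0.059 apart. The log2 fold change was 0.31 (95% interval 0.11 to 0.52, adjusted p = 0.0649, limma). Tab1, which binds TAK1 and promotes its activation, read 5.32, 5.56, 5.40 and 5.36 in transgenic livers, and 5.64, 5.79, 5.66 and 5.50 in controls. It was the only member with a negative log2 fold change, -0.24 (95% interval -0.44 to -0.03, adjusted p = 0.116, limma), and transgenic replicate 2 lay within the range of the controls.

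The ubiquitin ligase Traf6, which relays signals of the interleukin-1 and Toll-like receptors to TAK1, read 6.96, 6.98, 6.50 and 6.69 in transgenic livers. Its controls read 6.53, 6.47, 6.37 and 6.74. Transgenic replicates 1 and 2 lay above all controls, and replicates 3 and 4 within their range. The log2 fold change was 0.25 (95% interval -0.04 to 0.54, adjusted p = 0.193, limma).

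Of the other 2 kinases, Map3k8 rose and Map3k14 did not pass. Map3k8 encodes TPL2, the kinase that links IKK to the ERK pathway in macrophages. Transgenic replicates 1 to 4 gave 6.33, 7.10, 6.39 and 6.19, against 5.77, 5.82, 5.67 and 5.65 in controls. The groups did not overlap, and transgenic replicate 2 stood above the other 3 transgenic livers. The log2 fold change was 0.77 (SE 0.18, 95% interval 0.38 to 1.17, adjusted p = 0.0389, limma), or 1.71-fold. Map3k14 encodes NIK, whose protein is kept low by steady degradation. It read 5.24, 5.28, 5.06 and 5.15 in transgenic livers, and 4.86, 5.13, 5.11 and 5.04 in controls. These readings lie near the array medians, and the groups overlapped. Its log2 fold change was 0.15 (95% interval -0.06 to 0.35, adjusted p = 0.275, limma).

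**Figure D2:**
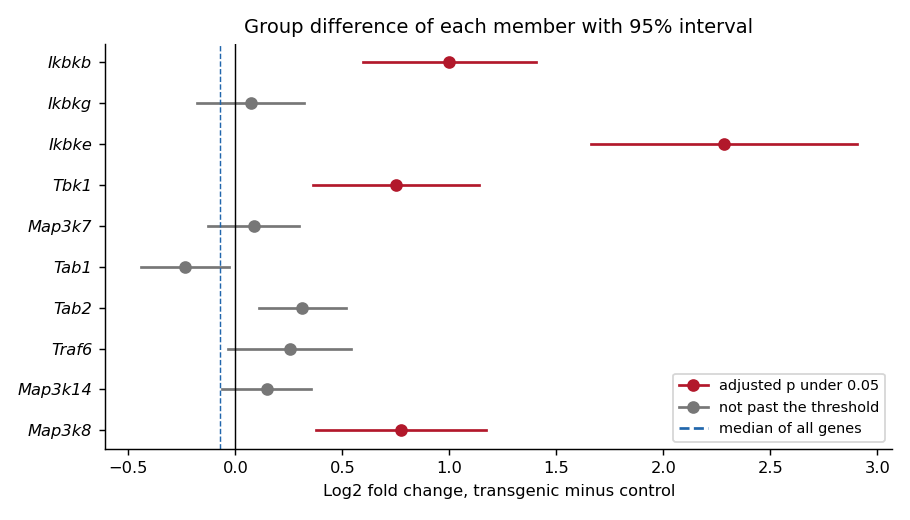
Log2 fold change (transgenic minus control) of each member with its 95% interval from limma, in red where the adjusted p is under 0.05; the dashed line marks the median of all genes at -0.07. Ikbke at 2.28 stands to the right of Ikbkb at 1.00, and the intervals of Ikbkg, Map3k7, Traf6 and Map3k14 include 0.

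Whether Ikbkb changed by more than the other members was tested on the difference of both log2 values within each array, with a two-sided exact permutation test over the 70 labellings of the arrays. The smallest p this design can give is 0.0286, and p-values were adjusted over 9 pairs. Ikbke changed by more than Ikbkb, with a difference of -1.28 for Ikbkb minus Ikbke (exact permutation p = 0.0286, adjusted 0.0367). Ikbkb in turn changed by more than its partner Ikbkg, by 0.93 on the log2 scale (exact permutation p = 0.0286, adjusted 0.0367). The differences from Map3k7, Map3k14, Tab1, Tab2 and Traf6, from 0.69 to 1.24, had the same p-values. Against Tbk1 the difference was 0.25 (exact permutation p = 0.0857, adjusted 0.0964), and against Map3k8 it was 0.23 (p = 0.429, also exact). The latter 2 differences were not distinguishable from 0 over these arrays. Without transgenic replicate 2 the adjusted p of the other 7 lay between 0.0514 and 0.0735. Those 7 differences kept their directions there, at -1.18 for Ikbke and from 0.60 for Tab2 to 1.16 for Tab1. The difference from Tab2 also missed the threshold without transgenic replicate 1 and without each control (adjusted p from 0.0643 to 0.0735, exact). That from Tbk1 passed without control replicate 3 (adjusted p = 0.0367, exact).

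The transgenic livers differed from each other in a like order for most members, an order shared with called genes at large. For 9 of 10 members transgenic replicate 2 gave the highest reading of its group, and for all 4 called members replicate 4 gave the lowest. Of all genes called higher, 84.9% were likewise highest in replicate 2 and 59.1% lowest in replicate 4, against 31.0% and 22.8% of all genes. Replicate 2 also had the lowest median (4.88) and the highest upper quartile (7.06) of the 8 arrays. The 4 called members thus share each end of this order with most genes called higher. No such share was computed for genes that were not called, so the other 6 members were not compared with their like. Among the controls no replicate was the highest for more than 3 members. Relative to the control mean, Ikbke stood 2.68, 2.96, 2.06 and 1.43 higher in transgenic replicates 1 to 4. The same departures were 1.28, 1.38, 0.67 and 0.66 for Ikbkb. For Tbk1 they were 0.87, 1.23, 0.55 and 0.34, in the same order as for Ikbke. Map3k8 departed from its control mean by 0.60, 1.38, 0.66 and 0.46, so that replicate 3 exceeded replicate 1 there.

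Lists of leukocyte markers also differed between these livers. The summed level of the 8 Kupffer cell markers (log2 of the sum of linear values) was 12.33, 13.31, 12.39 and 11.98 in transgenic replicates 1 to 4, against 11.0 to 11.3 in the controls. That of the 6 monocyte markers was 11.34, 12.05, 10.68 and 11.25, against 8.34 to 8.88. Transgenic replicate 2 was thus highest for both lists, as for the 4 called members, whereas the lowest was replicate 4 for the Kupffer cell list and replicate 3 for the monocyte list. It was also highest for the T and NK cell, neutrophil, dendritic cell and bile duct markers and for all 5 pathway lists. The summed level of the hepatocyte markers was 15.7, 15.5, 15.8 and 15.9 in the transgenic livers, against 15.8 to 15.9 in the controls. The part of the leukocytes in the rise of Ikbke, Map3k8, Tbk1 and Ikbkb was not tested.

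**Figure D3:**
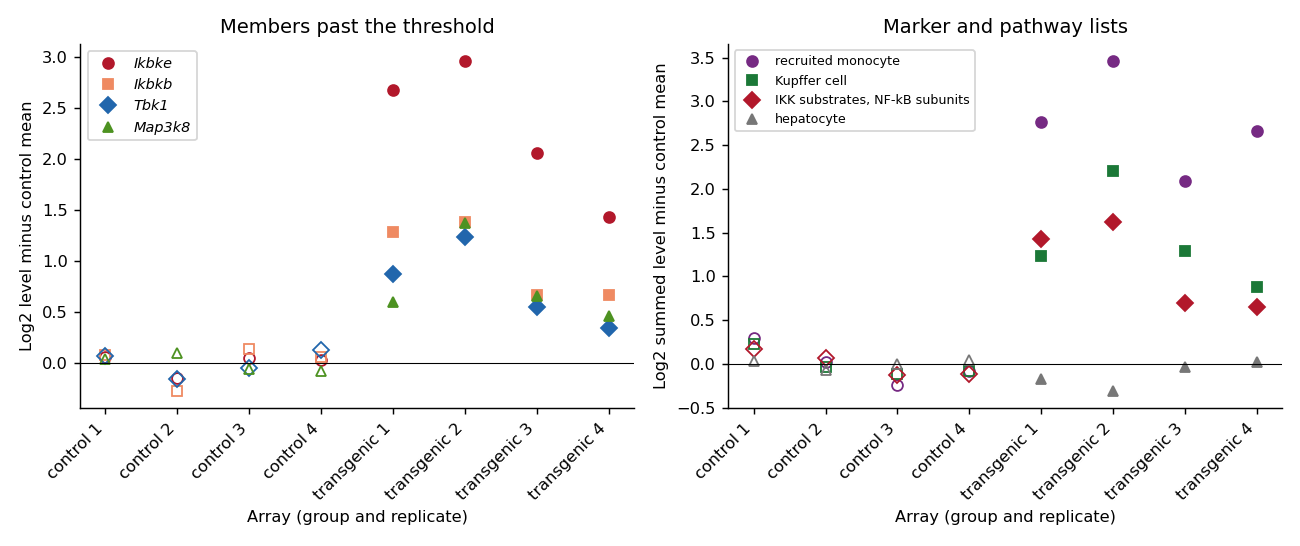
Departure from the control mean (log2) in each array for the 4 called members (left) and for the summed level of 4 gene lists (right), with open symbols for controls. Transgenic replicate 2 is the highest for all 4 members and for the monocyte, Kupffer cell and IKK substrate lists, and the lowest for hepatocyte markers.

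Around the members 5 lists of pathway genes were read, with 46 of 56 genes measured. Of these 14 rose and 0 fell, 30.4% against 4.67% of all genes. The genes listed were chosen with earlier results of these data known, so this contrast is a description and no test. Transcripts of the proteins that IKK acts on had the highest median of these lists. Of 5 measured IKK substrates and NF-κB subunits 4 rose, with a median log2 fold change of 1.22. Nfkbie, the inhibitor IκB-epsilon, rose by 2.55 (SE 0.28, adjusted p = 0.00223, limma), reading 7.41 to 8.62 in transgenic livers against 5.35 to 5.52. Nfkbia, the inhibitor that IKK2 marks for destruction, rose by 1.35 (adjusted p = 0.0387, limma), the subunit Rel by 1.22 and the inhibitor Nfkbib by 0.70. The call of Nfkbia was lost with each array centred on its median (0.05102) and with all deposited probe sets tested (0.0681). The subunit Rela stood at 0.38 (adjusted p = 0.0931, limma). The summed level of this list was 11.0, 11.2, 10.3 and 10.2 in transgenic replicates 1 to 4, which set replicates 1 and 2 apart as for Ikbkb.

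Upstream, 4 of 17 receptors and adaptors that lead to IKK rose, with a median of 0.40. Irak3, a kinase-like brake on Toll-like receptor signalling in macrophages, rose by 3.20 (SE 0.28, adjusted p = 0.000697, limma). It read 8.02 to 9.23 in transgenic livers against 5.23 to 5.59. Tlr2, a receptor for bacterial lipoproteins, rose by 2.90 (adjusted p = 0.00292, limma). The ubiquitin ligase Birc2 rose by 1.78 through its brightest probe set. With the mean of its probe sets taken, Birc2 rose by 1.23 (adjusted p = 0.016, limma). The TNF receptor Tnfrsf1b rose by 0.87. The other receptors and adaptors did not pass. They ran from Il1rap at -0.75 (adjusted p = 0.0585, limma), whose groups did not overlap, to Tlr4 at 0.98 (adjusted p = 0.0887, limma). Tradd at -0.008 and Irak1 at -0.001 both had limma's adjusted p above 0.9. At an unadjusted p under 0.05, 9 of the 17 were higher and 1, Il1rap, was lower. Over all genes 15.3% were higher and 18.3% lower at that threshold.

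In the branch controlled by NIK 4 of 7 genes rose, with a median of 0.71. They were Birc3 by 1.49, a ubiquitin ligase that takes part in NIK degradation, Nfkb2 by 1.40 and Relb by 1.205, the subunits of noncanonical NF-κB, and the receptor Tnfrsf11a by 0.71. Tnfrsf11a had a control mean of 4.66, under every array median, so the size of its rise is uncertain. NIK's own transcript did not pass, as given above. Birc2 and Birc3 are close paralogs, and how far their probe sets share signal was not tested.

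Of 8 partners of TBK1 and IKK-epsilon 2 rose, with a median of 0.13. Sting1, the adaptor that recruits TBK1 after sensing of cytosolic DNA, rose by 1.66 (SE 0.22, adjusted p = 0.0064, limma), and Tank, a scaffold of both kinases, by 0.63 (adjusted p = 0.0432, limma). Tank lost its call with each array centred on its median (0.0596), with all deposited probe sets tested (0.0725) and with array weights (0.0559). Limma called 0 of 9 kinases and partners downstream of TAK1 and TPL2, while 3 were higher at an unadjusted p under 0.05, where 15.3% of all genes were. Mapk14, the p38-alpha kinase, had the smallest p in that list and stood at 0.31 (adjusted p = 0.0785, limma).

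**Figure D4:**
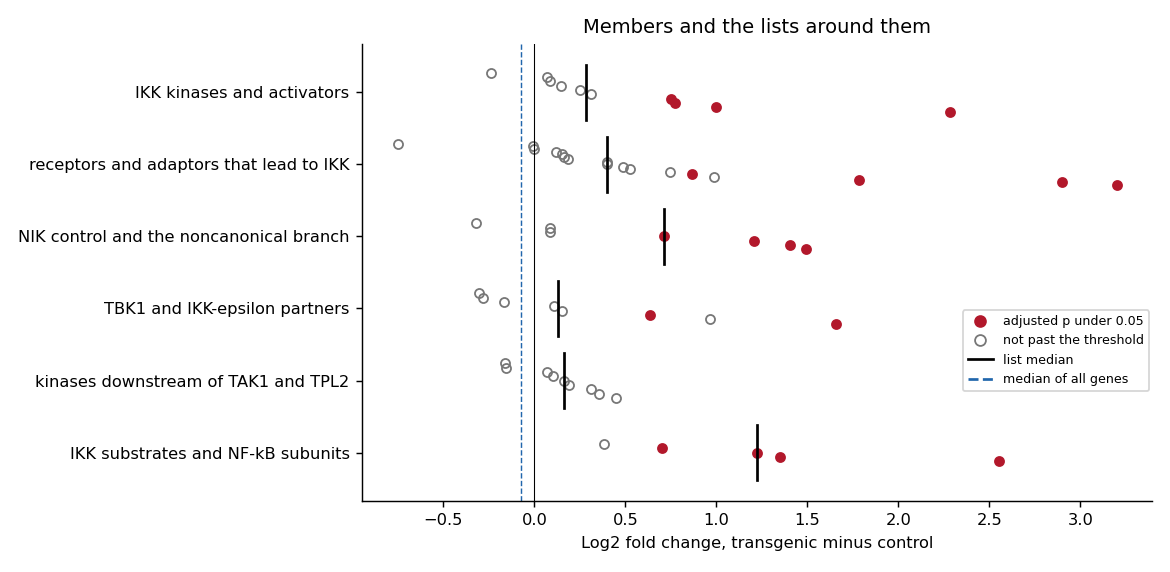
Log2 fold changes of the 10 members and of 5 lists of genes around them, 1 point per gene, filled in red where the adjusted p is under 0.05, with the median of each list as a black bar and that of all genes as a dashed line. Medians run from 0.13 for partners of TBK1 and IKK-epsilon to 1.22 for IKK substrates and NF-κB subunits.

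Which members passed depended on the arrays kept. Ikbke passed in all 18 other settings, with limma's adjusted p from 0.000635 to 0.0256. Without transgenic replicate 1, or without any 1 of the 4 controls, Ikbke was the only member that passed, and limma's adjusted p lay between 0.0546 and 0.0691 for Ikbkb, between 0.0753 and 0.119 for Tbk1 and between 0.0827 and 0.104 for Map3k8. With each array centred on its median Tbk1 and Map3k8 did not pass (adjusted p = 0.0553 and 0.0501, limma), nor with all deposited probe sets tested (0.0692 and 0.0673). Of the pathway genes 6 passed without transgenic replicate 1 or without any 1 of the controls, namely Irak3, Tlr2, Birc2, Nfkb2, Sting1 and Nfkbie, and 19 without transgenic replicate 4. Birc3, Relb, Tank, Nfkbia and Rel each lost the call in those 5 cases, at adjusted p-values of up to 0.126 (Tank, limma). Among the markers named, Nkg7 lost it without control replicates 2, 3 or 4, and Col1a1 without transgenic replicate 1 and control replicates 2 or 3. Over all genes the count of higher genes ranged from 192 without control replicate 2 to 1636 without transgenic replicate 4.

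**Figure D5:**
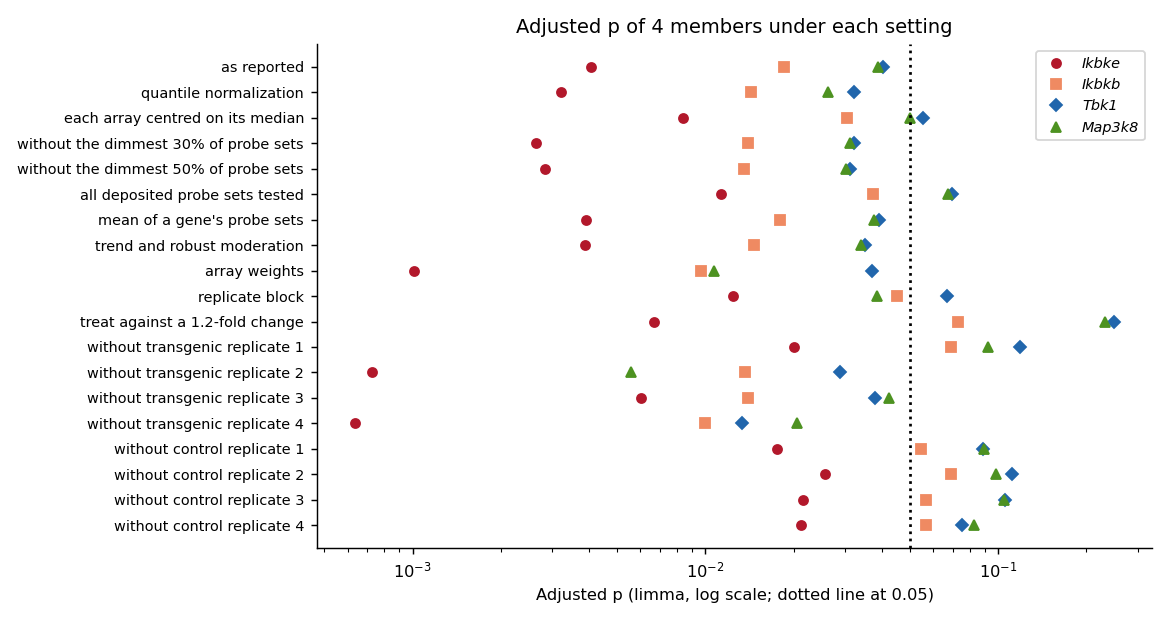
Limma's adjusted p (log axis) of the 4 called members under each setting, with the threshold of 0.05 as a dotted line. Ikbke stays left of the line in every setting, with a highest value of 0.0256, whereas Ikbkb, Tbk1 and Map3k8 cross it without transgenic replicate 1 and without each control.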

How the data were processed

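For each probe set the authors deposited a log2 expression value per array. The submitters' processing notes name Affymetrix Expression Console as the tool. The sources used here do not give its version, settings or normalization. The base of the logarithm was read from the values, whose maximum is 14.1. They were used without further normalization, and no background measure was available, so the array number limits the precision.

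Of 35556 probe sets 21789 carry 1 gene symbol, and only these were tested (limma 3.58.1, R 4.3.3; group as the only term, empirical Bayes moderation, two-sided). Genes were counted through the brightest probe set. The replicates are labelled biological. No 2 arrays were identical. Promoter windows came from the RefSeq table of GRCm38.p6. The steps were tested on simulated data.

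Members and lists were chosen with earlier results of these data known. Named are all members, the 3 called genes with the largest change of each pathway list (or that with the smallest p) and the 2 of each marker list. Tnfrsf1b, Tnfrsf11a, Nfkbib, Rela, Tradd, Irak1, Il1rap and Tlr4 were named after their values were seen. A planned pseudocount did not apply to log2 values. Same-numbered livers of both groups deviated together with correlations from -0.125 to 0.278, so the numbers were not treated as pairs.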

Additional observations from a re-analysis of the deposited data

Results flagged for a closer look

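In groups of 4, a liver was marked when its gap to the nearest reading over the group's range passed Dixon's 95% critical value. This was so in 2 of 64 groups, and chance alone marks about 5% of groups. Control replicate 2 read 7.24 for Ikbke (7.2351), under the other controls at 7.41 to 7.44. Control replicate 3 read 7.22 for the macrophage marker Cd68 (7.2242), under the other controls at 7.43 to 7.46.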

How the results depend on the processing

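Directions of the 4 called members were the same in all 18 alternatives. Ikbke passed in each, at log2 fold changes from 1.95 to 2.57. Quantile normalization gave 638 lower genes, and Ikbkg and Map3k7 turned to -0.078 and -0.050. Array weights gave 501 lower genes, with both members at -0.0068 and -0.015. Centring on array medians gave 618 higher and 97 lower genes and 2 members, Tbk1 at 0.83 and Map3k8 at 0.85 no longer passing. Testing all deposited probe sets gave 425 and 54 genes and 2 members, at unchanged log2 fold changes (Tbk1 0.75, Map3k8 0.77). Limma's treat against a 1.2-fold change, a stricter question by its construction, gave 271 and 8 genes, 7 pathway genes and 1 member, with Ikbkb at 1.00, Tbk1 at 0.75 and Map3k8 at 0.77 not passing. With the replicate number as a block there were 174 lower genes, and Tbk1 at 0.75 did not pass (adjusted p = 0.0667); 3 members passed, and Tank did not (0.0532). Under treat Tank, Nfkbia, Rel, Birc3, Col1a1 and Dcn lost their calls (adjusted p from 0.0519 to 0.344). Of the transgenic livers 2 of 4 correlated best with the control of their own number. Leaving out single arrays gave 192 to 1636 higher and 3 to 944 lower genes, 1 to 4 members and 6 to 19 pathway genes. Log2 fold changes then ran from 0.87 to 1.11 for Ikbkb, from 0.59 to 0.88 for Tbk1, from 0.57 to 0.88 for Map3k8 and from -0.022 to 0.14 for Ikbkg (-0.022 without transgenic replicate 1). The cause of these changes was otherwise not tested.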
